A study of Bos taurus with 14 samples.

Results

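The genes described here are 7 genes of the germline and of meiosis: SYCP3, SYCP1, STAG3, MAEL, TDRD1, DDX4 and DAZL. They were taken by symbol from the lists of expressed genes, which hold 18440 names shared by all libraries, and all 7 symbols were found, although DAZL was named only among the controls and the passage 10 cells. They were chosen by their RPKM levels over the groups of these same libraries, so their levels are given as a description, with no test. Total RNA from cattle was sequenced in 14 libraries. Of these, 10 came from bovine embryonic stem cells (bESC), pluripotent lines derived from blastocysts. For line A the passages (P) sequenced were 10, 13, 23, 35 and 45, and for line B they were 10, 12, 24, 35 and 46; each passage gave 1 library. Both lines were grown on feeder layers of mouse embryonic fibroblasts in CTFR medium. This is a base medium free of growth factors, given FGF2 of human sequence at 20 ng/mL and IWR1, an inhibitor of WNT signalling, at 2.5 µM. The controls were 2 pools of 10 whole in vivo blastocysts each and 2 lines of skin fibroblasts. No genetic change is stated for any group, and the age of the fibroblast donors is not given in the sources used here. A pool of whole blastocysts holds trophectoderm as well as the inner cell mass, and each bESC line is 1 culture followed over time.

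Germ cells are the lineage that gives rise to eggs and sperm, and they divide by meiosis, in which paired chromosomes are held together and recombined. SYCP3 forms the axial and lateral elements of the synaptonemal complex, the protein scaffold between paired chromosomes, and SYCP1 forms the transverse filaments that zip it up. STAG3 is one of the subunits that set meiotic cohesin apart from the cohesin of ordinary dividing cells. MAEL and TDRD1 act in nuage, the granules in which germ cells make piRNAs, small RNAs that silence transposons. DDX4 (VASA) is an RNA helicase of germ cell granules, and DAZL is an RNA-binding protein of germ cells. Many of these genes are kept silent in somatic cells by DNA methylation and by repressor complexes such as that of E2F6, and mouse embryonic stem cells are known to express some of them.

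Expression was deposited as RPKM, the reads of a gene scaled by its length and by the reads of its library. Summed RPKM ran from 349527 to 435754 in the controls and P10 libraries and from 475822 to 501373 in the 8 later bESC libraries, which form a second set of files with another list of genes. The 2 most abundant features took 65.8% and 64.0% of the summed RPKM in the blastocyst pools and 2.08% to 3.36% in the other libraries. All other RPKM values of the blastocysts are therefore scaled down, and changes that involve them are given relative to the median gene. Since GAPDH, which nearly all cells express, was listed at 0 in 14 of 14 libraries, zeros may be failed estimates, and such genes are called listed at 0. The cell types matched their markers in part. The 4 pluripotency markers named in all libraries summed to 322.8 to 448.9 RPKM in bESC, 38.2 and 30.0 RPKM in blastocysts, and 0.499 and 2.14 RPKM in fibroblasts, where SALL4 and LIN28B were listed at 0. The 9 fibroblast markers summed to 661.2 to 1094 RPKM in bESC, 2.68 and 3.28 RPKM in blastocysts and 12760 and 11890 RPKM in fibroblasts. The part that feeder or other mesenchymal RNA has in the bESC values was not tested. In RNA from whole cultures or embryos, fewer cells of a type and less RNA per cell cannot be told apart.

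The members fell into different patterns over the 3 kinds of sample. SYCP3 was present in bESC and in blastocysts, with its highest RPKM as deposited in line B at late passages. STAG3 was present in every bESC library and close to 0 in blastocysts and fibroblasts. MAEL, TDRD1 and DDX4 were highest in blastocysts. SYCP1 and DAZL stayed under 0.1 RPKM in every library in which they were named.

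SYCP3 was the most abundant member in 9 of 10 bESC libraries and in all 4 controls; in line A at P10 STAG3 was higher. In line A it stood at 2.99 RPKM at P10, 4.07 at P13, 5.48 at P23, 5.18 at P35 and 8.21 at P45. In line B it stood at 4.88 RPKM at P10, 11.4 at P12, 17.9 at P24, 15.6 at P35 and 26.1 at P46. The blastocyst pools held 6.83 and 4.35 RPKM, and the fibroblast lines 0.869 and 0.75 RPKM. All 10 bESC libraries and both blastocyst pools were thus above both fibroblast lines. As deposited, the 4 later libraries of line B were above every other library. On that scale later line A, at 5.74 ± 1.76 RPKM (SD, n = 4), overlapped with the blastocysts, at 5.59 ± 1.75 RPKM (SD, n = 2). So did the P10 cells, at 3.93 ± 1.34 RPKM (SD, n = 2). The blastocyst values are scaled down, so their rank among the bESC depends on the scaling. On the log2(RPKM + 1) scale the fitted difference of P10 cells from fibroblasts was 1.42 ± 0.28 (SE), or 1.19 relative to the median gene. That of P10 cells from blastocysts was -0.42 ± 0.28 (SE), or -1.85 relative to the median gene. It was -2.0 after quantile normalization, -1.93 after median-of-ratios scaling and -1.59 after scaling without the 2 most abundant features. Blastocysts stood 1.84 ± 0.28 (SE) above fibroblasts, or 2.99 relative to the median gene.

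The lines differed in SYCP3 at every stage, with line A below line B. The ratio of line A to line B was 0.613 at P10, 0.357 at P13 against P12, 0.306 at P23 against P24, 0.332 at P35 and 0.315 at P45 against P46. In each file the low values of a gene are whole multiples of what 1 read is worth, which gave the likely number of reads behind a value. SYCP3 rested on 82 to 313 such reads in line A and on 166 to 995 in line B. The 95% counting interval of line A at P10 was 2.38 to 3.72 RPKM, against 4.17 to 5.68 RPKM for line B. At the last passage it was 7.33 to 9.18 RPKM in line A, against 24.5 to 27.8 RPKM in line B. Such intervals cover counting error only, and there is 1 library per line and passage. The fitted line difference was -1.27 ± 0.17 (SE) on the log2(RPKM + 1) scale over all 10 libraries, and -1.45 over the 8 later ones alone. For comparison, limma with Benjamini-Hochberg adjustment called 2 of 10726 genes between the lines (0.0186%), both lower in line A. These were ENSBTAG00000001836 and ENSBTAG00000046595, which have no gene name in the files and were named after their values were seen. At an unadjusted p under 0.05 there were 1202 genes.

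SYCP3 was also higher at late than at early passages within each line. The last passage was 2.02 times P13 in line A and 2.29 times P12 in line B, comparisons that stay within the second set of files. Against P10 the ratios were 2.75 in line A and 5.35 in line B, but P10 and later libraries lie in different sets of files, so the passage and the file set cannot be told apart there. In neither line was the order strict: P35 lay below P23 in line A and below P24 in line B, with overlapping counting intervals in both lines. The fitted slope over the later passages was 0.26 ± 0.07 (SE) log2 units per 10 passages, and the slope of line A minus that of line B was -0.05 ± 0.16 (SE). The step between later and P10 libraries was 1.17 ± 0.21 (SE). Without the P10 library of line A it was 1.61, and without that of line B it was 0.72. Over all genes the slope gave 0 calls by limma of 10726 (0%), with 263 genes at an unadjusted p under 0.05, and the difference of slopes gave 0 calls (0%), with 45 such genes.

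**Figure D1:**
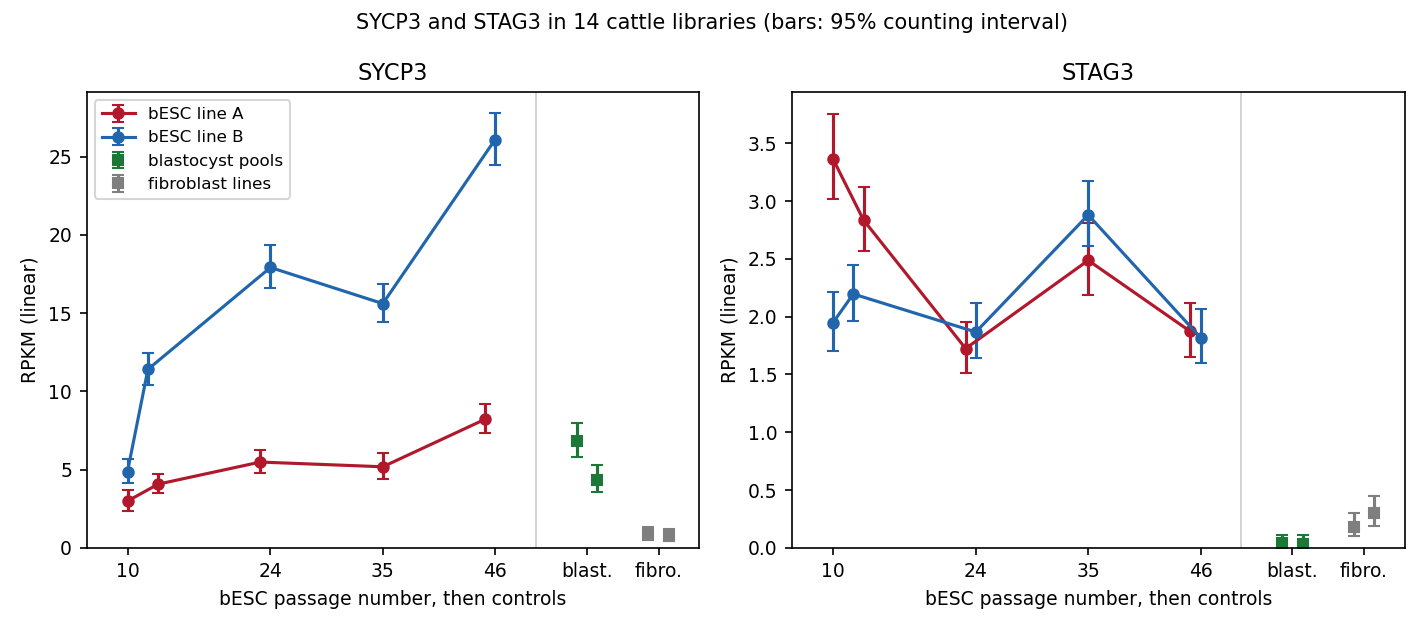
SYCP3 (left) and STAG3 (right) in RPKM on a linear axis, against the passage number of bESC lines A and B, with the blastocyst pools and fibroblast lines at the right of each panel. Bars are 95% counting intervals of single libraries; SYCP3 reached 8.21 RPKM in line A and 26.1 RPKM in line B at the last passage, while STAG3 stayed between 1.72 and 3.37 RPKM in both lines.

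The summed level of 8 trophectoderm markers was lowest at P10 in both lines. The markers summed to 174.5, 262.9, 822.6, 369.8 and 696.6 RPKM in line A from P10 to P45 and to 239.1, 622, 625.3, 722.3 and 875.1 RPKM in line B from P10 to P46. They summed to 927.8 and 638 RPKM in blastocysts and to 24.5 and 23.3 RPKM in fibroblasts. In bESC nearly all of the sum came from the keratins KRT8, KRT18 and KRT19. CDX2, a defining factor of trophectoderm, was listed at 0 in all 10 bESC libraries, and GATA3, GATA2 and TFAP2A stayed at or below 0.6, 0.326 and 0.89 RPKM there. Of 4 markers tested KRT18 and KRT8 were called higher in later bESC relative to P10, where 25.9% of all 10726 genes were. They rose by 2.07 and 1.28 log2 units against the median gene (limma adjusted p before its subtraction 0.001556 and 0.009501). KRT19 and ELF3, not called, were at 0.94 and 0.41 (adjusted p = 0.0586 and 0.1106). The passage and the file set cannot be told apart in this comparison. Without the P10 library of line A the adjusted p of KRT8 was 0.0697, and without that of line B it was 0.0728. The slopes of the 4 markers over the later passages were not called (adjusted p = 0.9902 each). The part these cells or genes have in the SYCP3 levels was not tested.

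In the RefSeq annotation of the assembly ARS-UCD2.0 SYCP3 overlaps CHPT1, which encodes a choline phosphotransferase of lipid synthesis. The strandedness of the counting is not stated, so reads of overlapping genes cannot be told apart. CHPT1 was named only in the later libraries. It stood at 6.70, 8.598, 7.08 and 9.48 RPKM in line A from P13 to P45 and at 6.65, 10.4, 6.22 and 8.08 RPKM in line B from P12 to P46. Its ratio of line A to line B ran from 0.827 to 1.17, whereas that of SYCP3 ran from 0.306 to 0.357 over the same stages.

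The genes whose levels followed SYCP3 most closely over the 10 bESC libraries were GTPBP1, GLS2, PPOX, GPCPD1 and ENSBTAG00000009457, out of 10254 genes compared. Pearson's r of log2(RPKM + 1) was 0.93 for GTPBP1 and 0.91 for ENSBTAG00000009457, which has no gene name in the files, and 0.92 and 0.90 over the 8 later libraries. The libraries share 2 cultures, the passages and the file sets, so these values are a description. GPCPD1, a phosphodiesterase of glycerophosphocholine, had the widest range among the named ones. It stood at 7.67, 10.9, 21.7, 15.5 and 20.8 RPKM in line A and at 17.6, 27.3, 32.2, 27.4 and 34.9 RPKM in line B, in passage order. No germline gene of the lists below was among the 5.

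SYCP1, the partner of SYCP3 in the synaptonemal complex, did not share its levels. In line A it stood at 0.042, 0.0463, 0.00959, 0.013 and 0 RPKM from P10 to P45, and in line B at 0.022, 0.018, 0.0103, 0.0185 and 0.0299 RPKM from P10 to P46. In blastocysts the pools held 0.051 and 0.083 RPKM, and both fibroblast lines were listed at 0. No library held more than 5 reads of SYCP1, so differences between the groups were not detectable at this depth. In ARS-UCD2.0 the gene overlaps TSPAN2, which stood at 1.52 to 5.61 RPKM in bESC, so that reads of SYCP1 may not be its own.

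STAG3 separated bESC from both controls. In line A it stood at 3.37 RPKM at P10, 2.84 at P13, 1.72 at P23, 2.49 at P35 and 1.87 at P45. In line B it stood at 1.95 RPKM at P10, 2.20 at P12, 1.87 at P24, 2.88 at P35 and 1.82 at P46. The blastocyst pools held 0.038 and 0.037 RPKM, which is 3 reads each, and the fibroblast lines 0.181 and 0.3 RPKM. The lowest bESC library was above all 4 controls, the fibroblast lines came next and the blastocyst pools were lowest. The lines overlapped, with 2.23 ± 0.522 RPKM in later line A and 2.19 ± 0.489 RPKM in later line B (SD, n = 4 each). The fitted difference of P10 cells was 1.53 ± 0.21 (SE) from fibroblasts and 1.79 ± 0.21 (SE) from blastocysts on the log2(RPKM + 1) scale, or 1.30 and 0.36 relative to the median gene. After median-of-ratios scaling the second value was 1.16 relative to the median gene.

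Unlike SYCP3, STAG3 showed neither a steady line difference nor a steady trend. The ratio of line A to line B was 1.73 at P10 and between 0.863 and 1.29 at the later stages. The fitted slope was -0.04 ± 0.07 (SE) per 10 passages and the fitted line difference 0.13 ± 0.15 (SE). The last passage was 0.66 times P13 in line A and 0.828 times P12 in line B. GPC2, a glypican and the next gene after STAG3 in ARS-UCD2.0, was looked at after its values were seen. It stood at 5.76 to 18.9 RPKM in bESC, at 0 in both blastocyst pools and at 0.07 and 0.068 RPKM in fibroblasts.

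MAEL was a blastocyst gene in these libraries. The bESC of line A held 0.252, 0.219, 0.0524, 0.095 and 0.2 RPKM from P10 to P45, and those of line B held 0.793, 0.197, 0.131, 0.135 and 0.0363 RPKM from P10 to P46. Blastocyst pools 1 and 2 held 2.66 and 2.44 RPKM, and the fibroblast lines 0.032 and 0 RPKM. Both pools were above all bESC, and all bESC were above both fibroblast lines, the lowest of them by no more than counting error since it rests on 2 reads. Line B at P10 was the highest bESC library, with 39 reads. On the log2(RPKM + 1) scale P10 cells were at -1.24 ± 0.20 (SE) from blastocysts, or -2.67 relative to the median gene, and at 0.56 ± 0.20 (SE) from fibroblasts. Without line A at P10 the last value was 0.82, and without line B at P10 it was 0.30.

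TDRD1 was found almost only in blastocysts. It was listed at 0 in 9 of 10 bESC libraries, and line A at P35 held 0.0227 RPKM, which is 1 read. The blastocyst pools held 2.60 and 4.17 RPKM, from 88 and 145 reads, and both fibroblast lines were listed at 0. If the zeros are true counts, 3 reads would set limits of 0.0470 to 0.0724 RPKM in the 9 bESC libraries and of 0.0909 and 0.0874 RPKM in the fibroblasts. These limits cover counting error only.

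DDX4 was low in bESC and higher in blastocysts. Line A held 0.053, 0.117, 0.109, 0.181 and 0.126 RPKM from P10 to P45, and line B held 0.155, 0.148, 0.143, 0.082 and 0.164 RPKM from P10 to P46. In the blastocyst pools there were 0.621 and 0.459 RPKM, and in the fibroblast lines 0.022 and 0 RPKM. The 3 kinds of sample did not overlap in RPKM as deposited, but the lowest bESC library exceeded the fibroblasts by no more than counting error. That library, line A at P10, rests on 3 reads, with a counting interval of 0.011 to 0.154 RPKM. Fibroblast line 1 rests on 1 read, with an interval that reached 0.123 RPKM. Neither line nor passage set the bESC libraries apart, with 3 to 13 reads each. DAZL was listed at 0 in both P10 lines, at 0.089 and 0 RPKM in the blastocyst pools and at 0 in both fibroblast lines.

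**Figure D2:**
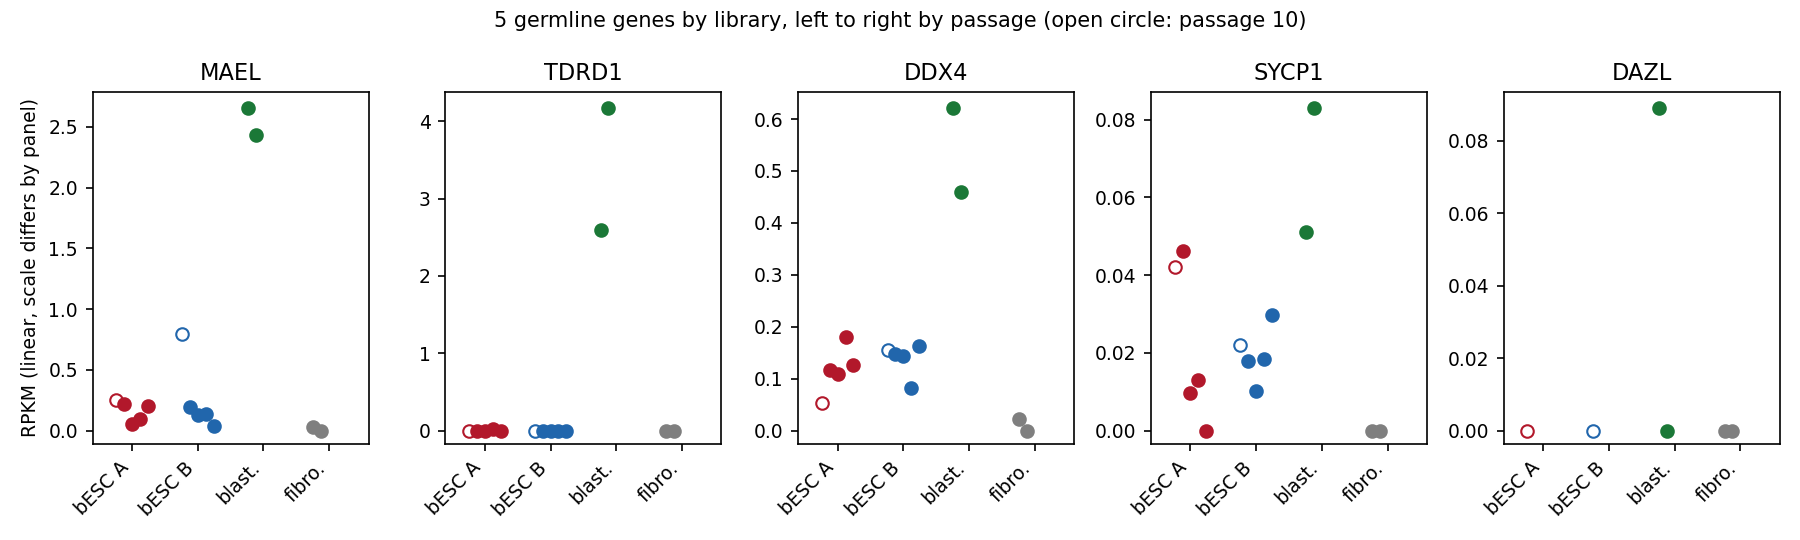
RPKM of MAEL, TDRD1, DDX4, SYCP1 and DAZL in each library on linear axes that differ by panel, with bESC line A (red), line B (blue), blastocyst pools (green) and fibroblast lines (grey) from left to right; bESC run in passage order and open circles mark P10. MAEL, TDRD1 and DDX4 were highest in both blastocyst pools; DAZL has no points for the later bESC because it was not named in those files.

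Genes were tested where 2 or more libraries of a fit reached 1 RPKM, which held for 4 of the 7 members among the controls and P10 cells (SYCP3, STAG3, MAEL and TDRD1). Among the 10 bESC libraries it held for 2 (SYCP3 and STAG3). MAEL and TDRD1 passed through the blastocysts alone and STAG3 through the P10 cells alone, while DDX4 was the nearest outside, at up to 0.621 RPKM.

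Around the 7 members stand 6 lists of other germline genes: synaptonemal complex, meiotic cohesin, meiotic recombination, piRNA and nuage, germ cell identity, and oocyte genes. They hold 104 genes, of which 85 were named among the controls and P10 cells and 33 passed the filter. Most germline genes were thus too low to test in any of these samples. Genes were tested with limma on log2(RPKM + 1) with Benjamini-Hochberg adjustment over all genes, and a call is an adjusted p under 0.05. Each p-value is for the change before the median gene is subtracted, also where the change is given relative to it. Of the 33 genes, 6 reached 1 RPKM in P10 cells alone, 9 in blastocysts alone and 1 in fibroblasts alone. Such a gene entered the test through the group in which it was high, so its call in that direction was favoured by the filter. Of the other genes, TDRKH, CCNB1IP1 and ZAR1L would not have passed without the P10 cells, nor OOSP1 without the blastocysts. Calls of these genes in that direction were favoured likewise, and the counts below are descriptions.

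Against fibroblasts, DMC1, TEX11, TDRKH and PRDM14 were among the genes called higher in P10 bESC, and TFAP2C and IFITM3 were called lower. Of the 33 genes 14 rose and 2 fell. Of all 11761 genes 57.3% were called, 35.4% as higher and 21.9% as lower. The median change of the 33 was 0.52 log2 units, against 0.23 over all genes. With calls required as deposited and under 3 other scalings, 10 rose and 2 fell, where 23.5% and 16.3% of all genes did. Without line A at P10 the calls numbered 7 of 33, and without line B at P10 they numbered 9. By list, 7 of 12 recombination genes, 3 of 6 piRNA genes and 4 of 7 identity genes rose. Of these, DMC1, TEX11, HFM1, MSH5, DND1 and ZBTB16 were the 6 that had reached 1 RPKM in P10 cells alone. Of the 17 genes that reached it in more than 1 group, 7 rose and 2 fell. TDRKH, 1 of the 7, would not have passed the filter without the P10 cells. None of 6 oocyte genes and neither synaptonemal complex gene tested was called, which does not show that they were alike: ZAR1L was at 0.68 (limma adjusted p = 0.06351) and LHX8 at 0.54 (0.06902) on the log2(RPKM + 1) scale. SYCE2, a central element protein of the complex, stood at 4.77 and 3.95 RPKM in P10 lines A and B, at 0.901 and 1.34 RPKM in blastocysts and at 4.02 and 3.36 RPKM in fibroblasts (limma adjusted p against fibroblasts 0.4817).

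DMC1, the recombinase that pairs strands in meiosis, stood at 25.7, 30.3, 28.5, 31.5 and 28.7 RPKM in line A and at 21.9, 31.7, 30.4, 32.5 and 29.1 RPKM in line B, in passage order. The blastocyst pools held 0.205 and 0 RPKM and the fibroblast lines 0.053 and 0.152 RPKM. Every bESC library was far above every control. Relative to the median gene P10 cells were higher by 4.26 ± 0.20 log2 units (SE) than fibroblasts and by 3.07 than blastocysts. The limma adjusted p, for the changes before that subtraction, was 2.6e-05 and 1.149e-05. DMC1 passed the filter through the P10 cells alone, so these calls were favoured by the filter.

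MND1 and PSMC3IP, which form a complex that aids DMC1, were also higher than in fibroblasts. MND1 stood at 43.9 and 29.1 RPKM in P10 lines A and B, at 3.74 and 4.00 RPKM in blastocysts and at 11.8 and 11.3 RPKM in fibroblasts. PSMC3IP, named beside it after its values were seen, stood at 19.9 and 9.57 RPKM at P10, at 4.15 and 5.32 RPKM in blastocysts and at 5.43 and 4.95 RPKM in fibroblasts. The limma adjusted p against fibroblasts was 0.001542 for MND1 and 0.01723 for PSMC3IP. As deposited, all bESC exceeded all 4 controls for both genes, and neither gene was near 0 in the controls. Against blastocysts both were called higher in P10 cells as deposited, but only MND1 also under the 3 other scalings.

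TEX11, a meiotic crossover gene, stood at 11.4 and 10.3 RPKM in P10 lines A and B, at 0.287 and 0.075 RPKM in blastocysts and at 0 in both fibroblast lines (limma adjusted p against fibroblasts 3.312e-05). HFM1, a helicase of meiotic crossing over, stood at 3.41 and 2.03 RPKM at P10 and at 0 and 0.024 RPKM in blastocysts. It was listed at 0 in both fibroblast lines (adjusted p = 0.000398). MSH5, a mismatch-repair homologue of meiosis named only in the first set of files, stood at 3.14 and 2.89 RPKM at P10, at 0.327 and 0.159 RPKM in blastocysts and at 0.586 and 0.606 RPKM in fibroblasts. It was 1.10 ± 0.16 log2 units (SE) above fibroblasts relative to the median gene (adjusted p = 0.0006356). TEX11, HFM1 and MSH5 passed the filter through the P10 cells alone, which favoured these calls.

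SPO11, which makes the meiotic strand breaks, was listed at 0 in all 10 bESC libraries and both blastocyst pools. It stood at 0 and 0.044 RPKM in fibroblasts. HORMAD1, an axis protein, was listed at 0 in 9 bESC libraries. It stood at 0.084 and 0.082 RPKM in blastocysts and at 0.086 and 0.028 RPKM in fibroblasts. STRA8, of the same list, went the other way. Its level was 0.849 to 1.58 RPKM in bESC, 0.115 and 0 RPKM in blastocysts and 0.039 and 0.152 RPKM in fibroblasts. PRDM9, which marks the sites of those breaks and was named only in the first set of files, stood at 0.948 and 0.9 RPKM in P10 lines A and B, at 0.49 and 0.389 RPKM in blastocysts and at 1.04 and 1.12 RPKM in fibroblasts. All the genes of this paragraph were named after their values were seen.

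Among piRNA and nuage genes, TDRKH stood out. This tudor protein of mitochondria, which aids piRNA trimming in mouse germ cells, stood at 25.97 RPKM in line A and 21.7 RPKM in line B at P10, and at 28.6 to 33.9 RPKM in all later bESC. Its level was 0.575 and 1.43 RPKM in the blastocyst pools and 0.059 and 0 RPKM in the fibroblast lines. P10 cells were higher than fibroblasts by 4.36 ± 0.26 log2 units (SE) and higher than blastocysts by 2.23, both against the median gene (limma adjusted p = 4.252e-05 and 3.426e-05). TDRKH reached 1 RPKM in only 1 control library and would not have passed the filter without the P10 cells, which favoured these calls. DDX25, a helicase known from testis, was higher than in fibroblasts by 1.22 log2 units (adjusted p = 0.01037), or 0.99 relative to the median gene. This call was lost after quantile normalization (0.0871). PNLDC1, the piRNA trimming nuclease, was higher than in fibroblasts by 0.46 log2 units (adjusted p = 0.03566), or 0.23 relative to the median gene. Its call was lost under all 3 other scalings (0.0557 to 0.901). Without either fibroblast line or either P10 library the change before subtraction of the median gene was 0.40 to 0.52. The call of DDX25 was also lost after median-of-ratios scaling (0.0544), without fibroblast line 2 (0.0520) and without line B at P10 (0.0531).

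GTSF1, a factor of PIWI-guided silencing, ran the other way and followed MAEL and TDRD1. It was listed at 0 in both P10 lines and in 6 of 8 later libraries, and stood at 0.0429 RPKM in line B at P12 and 0.0475 RPKM at P46. Against that, the blastocyst pools held 39.8 and 28.7 RPKM, and both fibroblast lines were listed at 0. It fell in P10 cells relative to blastocysts (limma adjusted p = 1.079e-05). GTSF1 passed the filter through the blastocysts alone, which favoured this call.

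**Figure D3:**
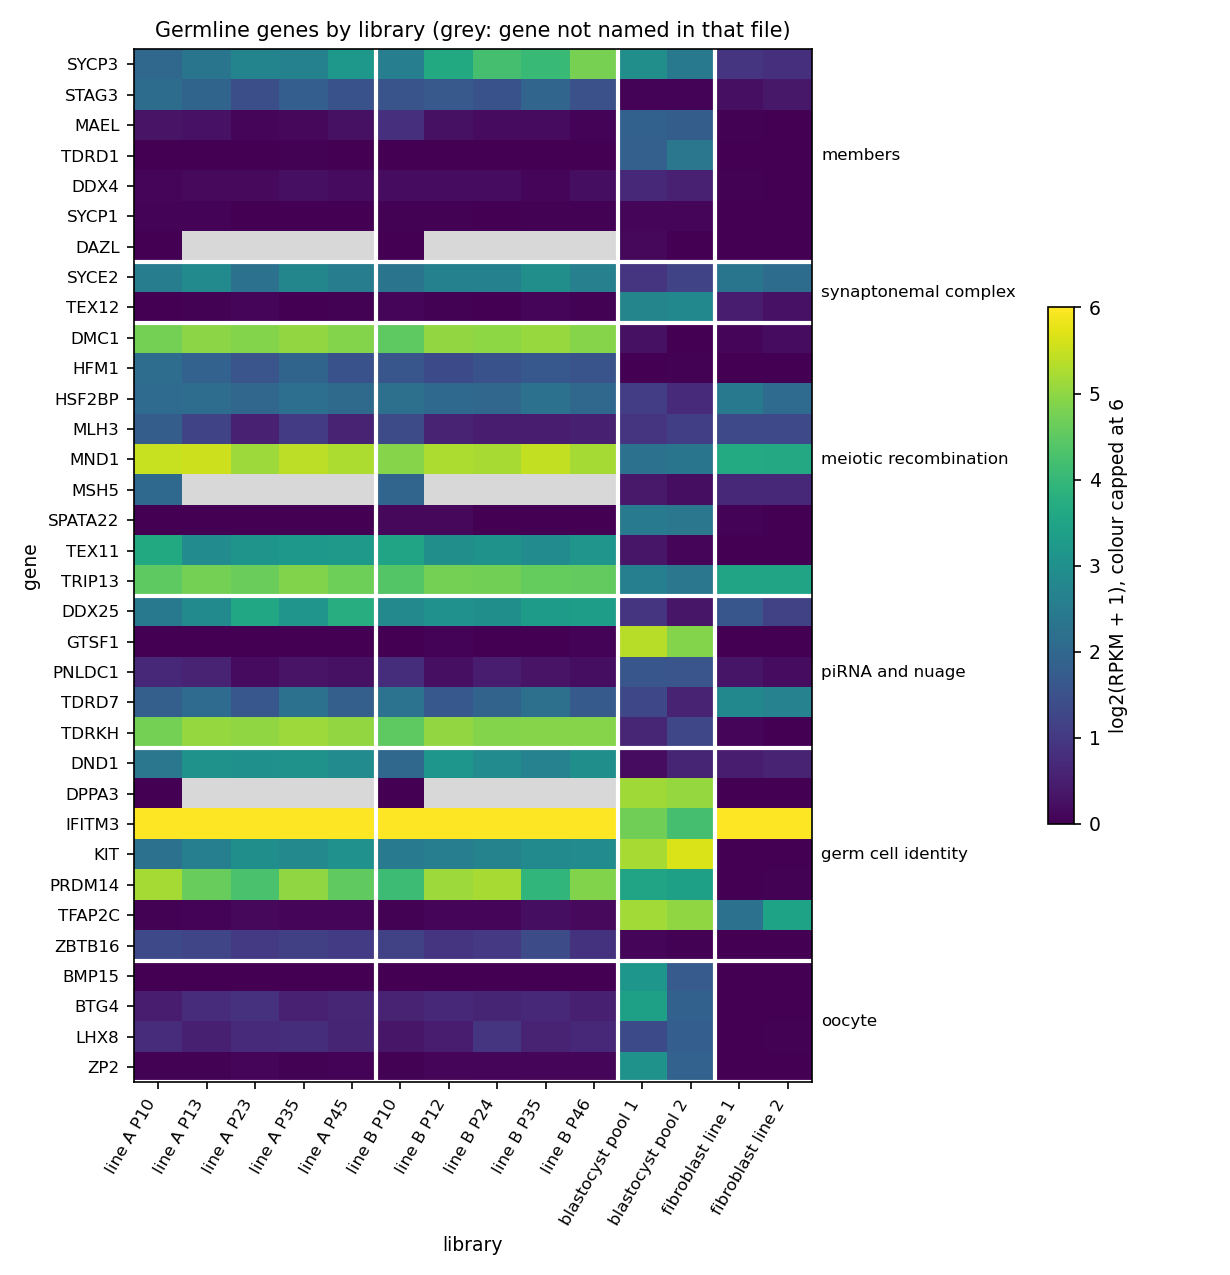
Colour shows log2(RPKM + 1), capped at 6, of the 7 members and of the list genes with the smallest adjusted p in each comparison (rows) in each library (columns: line A, line B, blastocysts, fibroblasts). DMC1, TDRKH and TEX11 are high across bESC alone, while GTSF1, TEX12 and TFAP2C are highest in blastocysts; grey marks genes not named in the later files.

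Germ cell identity genes were mixed. PRDM14, a regulator of primordial germ cells and of pluripotency in mouse, stood at 35.4 and 16.2 RPKM in P10 lines A and B, at 10.3 and 9.55 RPKM in blastocysts and at 0 and 0.03 RPKM in fibroblasts. It was higher than in fibroblasts by 4.39 ± 0.35 log2 units (SE) relative to the median gene (limma adjusted p = 0.0001139). KIT, a receptor of migrating germ cells, stood at 3.80 and 4.58 RPKM at P10, at 36.0 and 49.95 RPKM in blastocysts and at 0.01 and 0 RPKM in fibroblasts. DND1, an RNA-binding protein of germ cell survival, stood at 4.21 and 3.07 RPKM at P10, at 0.147 and 0.526 RPKM in blastocysts and at 0.402 and 0.485 RPKM in fibroblasts. KIT and DND1 rose against fibroblasts by 2.13 and 1.44 (adjusted p = 0.0002836 and 0.0008307). Both DND1 and ZBTB16 passed the filter through the P10 cells alone, which favoured their calls. ZBTB16, a factor of spermatogonial stem cells in mouse, stood at 1.495 and 1.23 RPKM at P10, at 0.065 and 0.021 RPKM in blastocysts and at 0 in both fibroblast lines (adjusted p = 0.0003843).

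The 2 genes that fell relative to fibroblasts were TFAP2C and IFITM3, named here after their values were seen. TFAP2C, a factor of germ cell specification and of trophectoderm, stood at 0.031 and 0.025 RPKM at P10, at 34.9 and 31.0 RPKM in blastocysts and at 3.80 and 10.1 RPKM in fibroblasts. It stayed at or below 0.174 RPKM in all bESC. IFITM3, a membrane protein of a family with close copies, among which reads may be shared, stood at 124 and 190.6 RPKM at P10, at 24.9 and 17.7 RPKM in blastocysts and at 453.7 and 314.9 RPKM in fibroblasts. Neither SOX17 nor NANOS3, which mark primordial germ cells, exceeded 0.196 RPKM in any bESC library, and both were chosen after their values were seen.

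Against blastocysts, DMC1 and TDRKH were among the genes called higher in P10 bESC, and KIT and TFAP2C among those called lower. Of the 33 genes 19 rose and 12 fell. Of all 11761 genes 80.3% were called, 73% as higher and 7.33% as lower. The median change of the 33 was 1.04 log2 units, against 1.43 over all genes. As deposited and under 3 other scalings, 5 rose and 12 fell, where 28.8% and 7.32% of all genes did. The 5 were DMC1, MND1, TEX11, TDRKH and IFITM3. Without blastocyst pool 1 the calls numbered 19, of which 3 were lower, and without pool 2 they numbered 18, of which 3 were lower. Of the 12 that fell, 9 had reached 1 RPKM in blastocysts alone (TEX12, SPATA22, GTSF1, PNLDC1, DPPA3, BMP15, BTG4, LHX8 and ZP2), so a lower value in P10 cells was built in for them. Of the 17 genes that reached it in more than 1 group, 12 rose and 3 (KIT, TFAP2C and OOSP1) fell. Among these, TDRKH and CCNB1IP1, which rose, would not have passed the filter without the P10 cells, nor OOSP1 without the blastocysts. By list, 5 of 6 oocyte genes fell and none rose. Of the 5, 4 had reached 1 RPKM in blastocysts alone, and the other was OOSP1. Of the recombination genes 11 of 12 rose and 1 fell, with a median change of 1.54 that lay 0.11 above the median gene.

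TEX12, SPATA22 and DPPA3 were found in blastocysts and near or at 0 in P10 cells, and each was tested only because of its blastocyst level. TEX12, a central element protein of the synaptonemal complex, stood at 0 and 0.072 RPKM in P10 lines A and B and at 5.63 and 6.02 RPKM in blastocysts. It fell by 4.15 ± 0.16 log2 units (SE) relative to the median gene (limma adjusted p = 2.112e-05). SPATA22, which works with the single-strand DNA-binding protein MEIOB, stood at 0 and 0.101 RPKM at P10 and at 4.58 and 4.17 RPKM in blastocysts, and fell by 3.78 (adjusted p = 2.416e-05). DPPA3, a maternal and germ cell factor also called Stella in mouse, was listed at 0 in both P10 lines and stood at 34.6 and 32.3 RPKM in blastocysts (adjusted p = 7.545e-06). Against the median gene KIT fell by 4.50 and TFAP2C by 6.47 (adjusted p = 4.081e-05 and 4.325e-05).

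The oocyte genes that fell were BMP15, ZP2, LHX8, BTG4 and OOSP1. All but OOSP1 reached 1 RPKM in blastocysts alone, and OOSP1 reached it elsewhere only in fibroblast line 2, at 1.03 RPKM. None of these genes would have passed the filter without the blastocysts, which favoured their calls. ZP2, a protein of the egg coat, stood at 0.019 and 0.031 RPKM at P10, at 7.30 and 2.72 RPKM in blastocysts and at 0 in both fibroblast lines (limma adjusted p against blastocysts 0.0006453). BMP15, a growth factor secreted by oocytes, was listed at 0 at P10 and in fibroblasts and stood at 7.87 and 2.28 RPKM in blastocysts (adjusted p = 0.001568). BTG4, an adaptor for the clearance of maternal mRNA, stood at 0.385 and 0.487 RPKM at P10 and at 9.68 and 2.62 RPKM in blastocysts (adjusted p = 0.004525). Pool 1 was higher than pool 2 for these 3 genes.

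**Figure D4:**
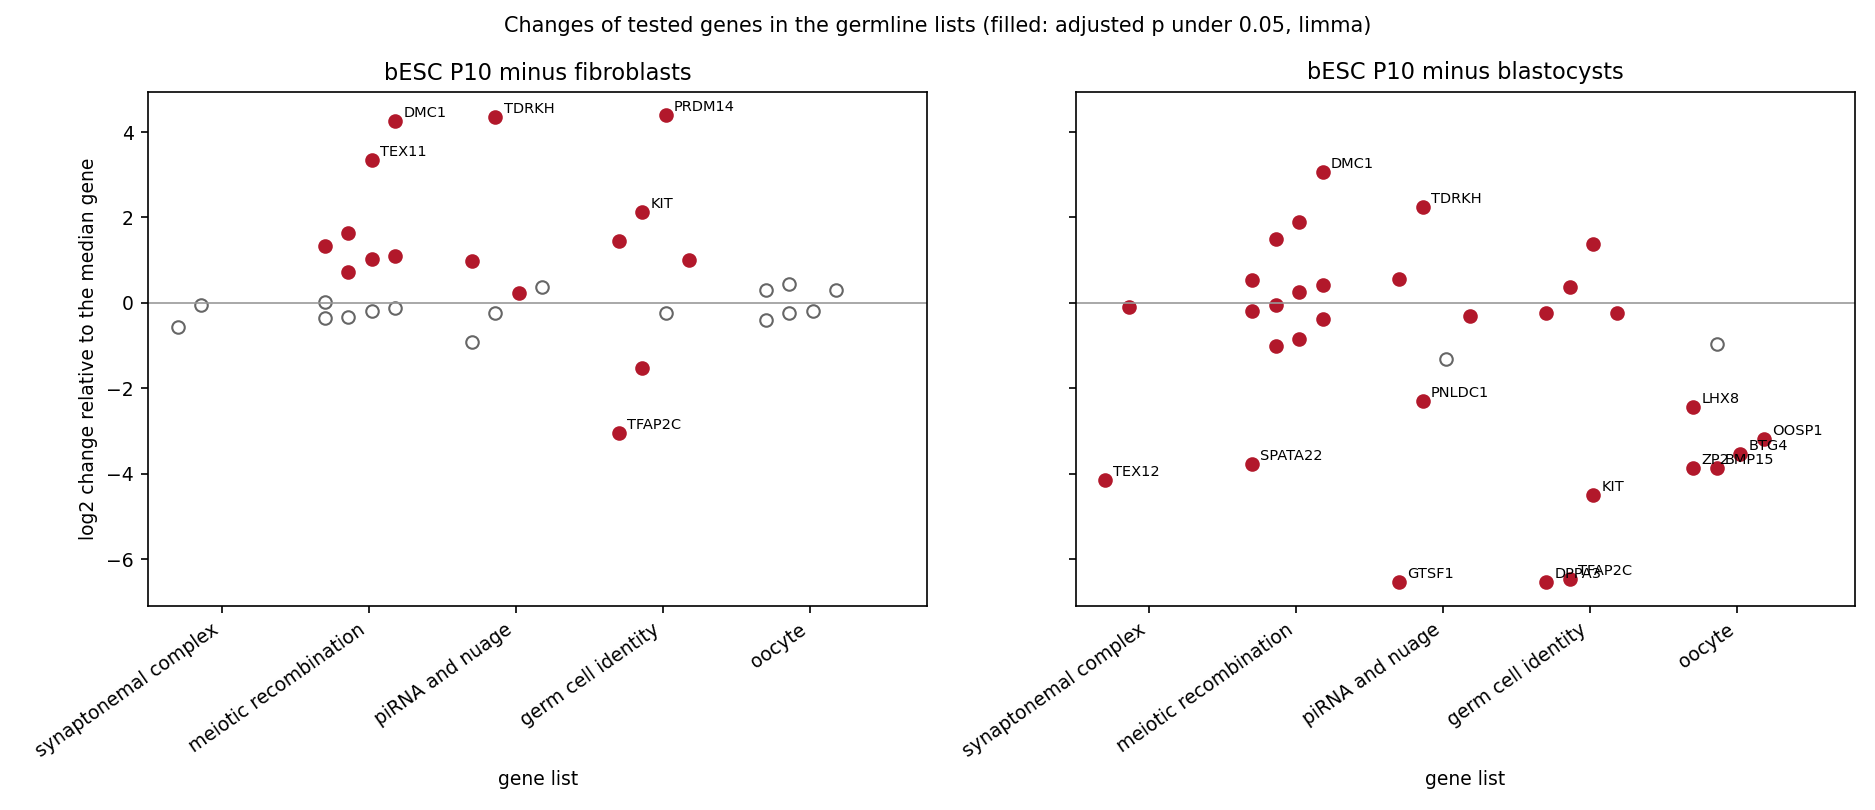
Fitted log2 change relative to the median gene for the tested genes of 5 germline lists, P10 bESC minus fibroblasts (left) and P10 bESC minus blastocysts (right); filled points had a limma adjusted p under 0.05 for the change before subtraction of the median gene, so filled points can lie near 0. DMC1 and TDRKH are high in both panels and the oocyte genes BMP15 and ZP2 low at the right; points of genes listed at 0 in 1 group depend on the pseudocount.

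Blastocysts were also set against fibroblasts in the same lists, where the share of genes called, 69.7%, was near that of all genes. Of the 33 genes 14 were higher and 9 lower in blastocysts than in fibroblasts, where 74.4% of all 11761 genes were called, 11% as higher and 63.4% as lower. The median change of the 33 was 0.22 log2 units, against -1.15 over all genes. As deposited and under 3 other scalings, 14 were higher and 1, IFITM3, was lower, where 10.9% and 31.2% of all genes were. Without either blastocyst pool the calls numbered 11. Of the 14 higher, 9, SPATA22 among them, had reached 1 RPKM in blastocysts alone. OOSP1, also among the 14, would not have passed the filter without the blastocysts. Of the recombination genes only SPATA22 was higher as deposited, at 4.58 and 4.17 RPKM in blastocysts against 0.039 and 0 RPKM in fibroblasts (limma adjusted p = 2.428e-05).

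Meiotic cohesin could be followed over the bESC alone. REC8, the meiotic kleisin that STAG3 binds, stood at 2.19, 2.18, 1.72, 1.84 and 1.53 RPKM in line A and at 0.946, 1.53, 1.10, 1.70 and 1.63 RPKM in line B, in passage order. The blastocyst pools held 0.021 RPKM each and the fibroblast lines 0.065 and 0.021 RPKM. As for STAG3, all bESC were above all controls. REC8 did not pass the filter among the controls and was not tested there. SMC1B, the meiotic SMC subunit, stayed at or below 0.046 RPKM in bESC and stood at 0.321 and 0.218 RPKM in blastocysts and at 0.014 and 0.028 RPKM in fibroblasts. RAD21L1, the other meiotic kleisin, overlapped between the groups in RPKM as deposited. It stood at 0.235 to 0.634 RPKM in bESC, at 0.267 and 0.348 RPKM in blastocysts and at 0.518 and 0.147 RPKM in fibroblasts. The blastocyst values are scaled down, so the overlap is that of the deposited scale. SMC1B and RAD21L1 were named after their values were seen.

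Over the 10 bESC libraries 22 of the 104 list genes passed the filter. Limma called 0 of the 22 between the lines, along the later passages or for the difference of slopes. Of all 10726 genes it called 0.0186%, 0% and 0%, so 0 of 22 does not set the list genes apart. The fitted line difference of REC8 was 0.29 ± 0.13 (SE; adjusted p = 0.4403), and that of DMC1 was near 0 (0.9976). The slopes per 10 passages were -0.02 ± 0.06 for REC8, -0.01 ± 0.03 for DMC1 and -0.01 ± 0.03 for TDRKH (SE; adjusted p = 0.9902 each). DMC1 at the last passage was 0.948 times P13 in line A and 0.918 times P12 in line B.

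Later against P10 libraries, 6 of the 22 rose and 2 fell, where 35.1% of all 10726 genes were called, 25.9% as higher and 9.16% as lower. The median change of the 22 was 0.12, against 0.09 over all genes. The passage and the file set cannot be told apart in this comparison. As deposited and under 3 other scalings, DND1 rose, and TEX11 and MLH3 fell, where 14.4% of all genes rose and 9.16% fell. DND1 stood at 5.34 to 7.85 RPKM in later bESC and at 4.21 and 3.07 RPKM in P10 lines A and B, a rise of 0.67 relative to the median gene (limma adjusted p = 0.002426). MLH3, a mismatch-repair protein of crossovers, stood at 0.364 to 1.34 RPKM in later bESC and at 2.41 and 1.61 RPKM at P10, and fell by 0.98 (adjusted p = 0.004948). TEX11 stood at 6.44 to 8.49 RPKM in later bESC and at 11.4 and 10.3 RPKM at P10, and fell by 0.59 (adjusted p = 0.005308). Without the P10 library of line A the adjusted p was 0.0554 for MLH3 and 0.0541 for TEX11, and the calls numbered 3 of 22.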

How the data were processed

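Total RNA of 14 cattle samples was sequenced from TruSeq RNA libraries. The authors deposited RPKM values per gene and library, with no read counts. Per the submitters' processing notes, the build UMD3.1 and edgeR were involved. Versions, the part each had, the aligner, read counter, annotation and strandedness: not given in the sources used here. The 6 control and P10 files share 1 gene list (23159 features used after 26 unreadable names, 25 dates and 21 blank values were left out) and the 8 later files another (24616). The lists have 21008 names in common, of which 2568 with a copy suffix were left out. No library pair was identical, and columns left unused numbered 0.

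Values were fitted as log2(RPKM + 1), which understates changes of low genes, with limma 3.58.1 in R 4.3.3 (empirical Bayes with a trend, two-sided, Benjamini-Hochberg adjustment over all genes passing at least 1 RPKM in at least 2 libraries). The first fit held 2 P10, 2 blastocyst and 2 fibroblast libraries with 1 common spread. The second held 10 bESC libraries with terms for line, passage and P10, and for the difference of slopes a line by passage term. Nothing says that samples of a group came from separate animals beyond the pools and lines named, and passages of a line are 1 culture, so p-values measure only the spread between these samples. Fitted changes and list medians include genes listed at 0 in 1 group, whose change depends on the pseudocount. On data simulated for P10 minus fibroblasts (10846 genes, 200 changed by 2 log2 units) 77.5% were recovered with 11 false calls, and for line A minus line B (10553 genes) 99.0% with 9.

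Reads behind a value were recovered from the steps of low values, as the smallest whole numbers that fit; if true numbers are a multiple of them, intervals would be narrower. Members of the later files came within 0.003 of a whole read, and those of the first set within 0.106 except STAG3 in line A at P10 (0.341), if gene lengths are the same in both sets. Depth relative to line A at P13 was 0.532 to 0.829 in the first set and 0.710 to 1.03 in the second; depth in reads is unknown. Intervals are exact Poisson at 95%.

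The members and the gene lists were chosen with earlier results of these data known. Named genes were, per comparison and list, up to 4 called genes with the smallest adjusted p, or up to 2 with the highest mean RPKM where none was called, and the 5 genes most like SYCP3 with a mean of at least 1 RPKM; others are marked. Besides the 6 germline lists, lists of mitotic cohesin, repressors of germline genes and pluripotency, trophectoderm and fibroblast markers were used. All 134 of 155 list genes named in the files matched a table of reference symbols (ARS-UCD2.0), as did 7 of 7 members. Neighbouring and overlapping genes were taken from the gene positions of that table; no sequence was used and no coordinate is printed. Tables were handled in pandas 2.3.3 and numpy 2.4.6 (Python 3.11.15). Alternatives were a pseudocount of 0.1, no filter, 3 other scalings, a replicate block, subsets of the bESC and leaving out each library.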

Additional observations from a re-analysis of the deposited data

Results flagged for a closer look

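TDRD1 in line A at P35 stood at 0.0227 RPKM, apart from the other 3 later libraries of line A, which were all listed at 0. The value is that of 1 read. It was the only such case among 11 sets of 4 later libraries of a line checked. Where all other values of a set are 0, a single read is always marked, so no conclusion is drawn.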

How the results depend on the processing

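The counts of called germline list genes were 23 for blastocysts minus fibroblasts, 16 for P10 bESC minus fibroblasts, 31 for P10 bESC minus blastocysts, 8 for later minus P10 and 0 for the line difference, the slope and the difference of slopes. Without the filter on low values, blastocysts minus fibroblasts gave 40, P10 minus blastocysts 49 and later minus P10 15. Quantile normalization gave 38 for blastocysts minus fibroblasts, and later minus P10 gave 5 after median-of-ratios scaling and 4 after scaling without the 2 most abundant features. With each library left out in turn, the counts ran from 11 to 23 for blastocysts minus fibroblasts, from 7 to 15 for P10 minus fibroblasts, from 18 to 30 for P10 minus blastocysts and from 3 to 9 for later minus P10, and stayed at 0 for the other 3. The cause was not tested.

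Against the blastocysts some list genes changed sign with the scaling. After quantile normalization SYCE2 was at 0.26 and HSF2BP at 0.0368, MND1 at 0.0564, TRIP13 at 0.38 and RAD21 at 0.38 for blastocysts minus fibroblasts, with SYCE2 at -0.39 and PDS5A at -0.21 for P10 minus blastocysts. After median-of-ratios scaling TRIP13 was at 0.36 and RAD21 at 0.54, with STAG2 at -0.35 and PDS5A at -0.62. After scaling without the 2 most abundant features TRIP13 was at 0.36 and RAD21 at 0.55, with PDS5A at -0.18. These scalings moved the median gene of blastocysts minus fibroblasts by 1.09 to 1.18 log2 units. Over all alternatives the line difference of SYCP3 ran from -1.45 to -1.13 and its slope from 0.20 to 0.28, while the step of STAG3 between later and P10 libraries changed sign without line A at P10 (0.10).

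Deviations of samples with the same letter, A or B, in the titles were compared between groups. They correlated at -0.079 between P10 and blastocysts, -0.099 between P10 and fibroblasts and 0.187 between blastocysts and fibroblasts. With 2 libraries per group these values cannot show whether the letters pair the samples. With the letters as a replicate block the counts were 22, 15 and 29. With the passage stages as a replicate block the line difference gave 0 calls and SYCP3 was at -1.28.

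Depth limits SYCP1, DAZL and the bESC values of DDX4, MAEL and TDRD1, which rest on few reads. Groups hold 2 libraries, and P10 and later bESC lie in different file sets.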

Other observations

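Mitotic cohesin, the complex of ordinary dividing cells, was high in bESC beside the meiotic subunits STAG3 and REC8. Of 8 genes tested 7 rose in P10 bESC relative to fibroblasts and 0 fell, where 35.4% of all genes rose and 21.9% fell. SMC3 stood at 111.4 and 80.6 RPKM in P10 lines A and B and at 19.3 and 26.6 RPKM in fibroblasts, a rise of 1.79 log2 units relative to the median gene (limma adjusted p = 0.0007013). Relative to blastocysts 5 rose as deposited, where 73% of all genes did, and only RAD21 did so under 3 other scalings too. Relative to P10, 6 of 8 fell in later bESC, where 9.16% of all genes fell, a comparison in which the passage and the file set cannot be told apart. The calls of PDS5B (adjusted p = 0.209) and STAG2 (0.260) were lost without line A at P10, and that of PDS5B (0.0678) without line B at P10. STAG1, at 2.95 to 6.78 RPKM in later bESC and 11.4 and 8.84 RPKM at P10, fell by 1.19 (adjusted p = 0.004342).

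Of 16 repressors of germline genes tested, 13 rose and 1 fell in P10 bESC relative to fibroblasts, where 35.4% of all genes rose and 21.9% fell. Relative to blastocysts 12 rose and 2 fell, where 73% of all genes rose and 7.33% fell, so that the share that rose was near that of all genes. ATF7IP, E2F6 and L3MBTL2 rose there by less than the median gene. DNMT3B, a de novo DNA methyltransferase, stood at 108.5 and 67.6 RPKM in P10 lines A and B, at 29.7 and 21.9 RPKM in blastocysts and at 0.242 and 0.331 RPKM in fibroblasts, a rise of 5.84 relative to fibroblasts (adjusted p = 2.6e-05). TRIM28, a co-repressor of transposons, stood at 240.3 and 208.5 RPKM at P10, at 15.3 and 13.7 RPKM in blastocysts and at 59.9 and 57.5 RPKM in fibroblasts. ZFP42 (REX1), known from naive mouse cells, stood at 0.048 and 0.155 RPKM at P10, at 185.2 and 293.8 RPKM in blastocysts and at 0 in both fibroblast lines. E2F6, whose complex silences SYCP3 and other meiotic genes in mouse, stood at 5.68 to 9.86 RPKM in later bESC and at 10.8 and 9.01 RPKM at P10. It fell by 0.58 relative to the median gene (adjusted p = 0.03817), a call lost without either P10 library (0.176 and 0.161).

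Of the marker lists, 6 of 6 pluripotency, 3 of 7 trophectoderm and 0 of 9 fibroblast markers tested rose in P10 bESC relative to fibroblasts, and 0, 2 and 9 fell, where 35.4% of all genes rose and 21.9% fell. Relative to blastocysts 5, 1 and 8 rose and 0, 4 and 0 fell, where 73% of all genes rose and 7.33% fell.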
